A study of Mus musculus with 26 samples.

Results

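The cytosolic ribosomal protein genes encode the protein part of the ribosome that translates nuclear-encoded mRNA, and their mRNA levels were compared here across sensory ganglia of the mouse (dorsal root ganglia, DRG, which hold the cell bodies of sensory neurons) and neurons cultured from them. The members are 85 of the 55401 counted genes: those whose symbol names a large-subunit protein (Rpl, 53 genes, the P-stalk genes included) or a small-subunit protein (Rps, 32 genes), pseudogene names left out. The symbol rule let through 3 genes that the annotation calls pseudogenes, among them *Rpl32l* and *Rps4l* (the other is *Rpl6l*). Of the 85 genes, 81 to 84 passed the filter on low counts, depending on the libraries fitted. *Rpl10l*, a testis paralog of *Rpl10*, had no count in any of the 26 libraries.

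A ribosome holds one copy of nearly every ribosomal protein, so cells make these proteins in concert with ribosomal RNA, and the proteins that are not built in are degraded. Their mRNAs typically begin with a cytosine followed by a run of pyrimidines (the terminal oligopyrimidine or TOP motif), through which mTOR and LARP1 govern their translation, so that much of the control of this family acts after transcription. Ribosomal protein genes are also among the most frequent sources of processed pseudogenes, intronless copies made by reverse transcription of an mRNA, and they have been studied in sensory neurons because axons hold ribosomes and ribosomal protein mRNAs.

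The study set mice lacking the aryl hydrocarbon receptor gene *Ahr* in neurons beside control mice, before and after injury of the sciatic nerve. The knockout mice (cKO below) were Ahr f/f Thy1-CRE(ERT2/EYFP), in which a tamoxifen-inducible Cre is driven by the *Thy1* promoter, active in neurons; controls carried the floxed allele without Cre, as Ahr fl/+ or Ahr fl/fl. Naive ganglia (lumbar L4 to L6) came from 3 control mice (2 fl/+, 1 fl/fl) and 3 cKO mice, all labelled female, taken 5 weeks after tamoxifen (100 mg/kg daily for 5 days, from 28 weeks of age). Crush ganglia came from 3 control mice (2 fl/+, 1 fl/fl) and 3 cKO mice, 2 females and 1 male by label in each group, 1 day after sciatic nerve crush, under the same tamoxifen schedule. Sham ganglia came from the operated and the contralateral side of 2 control mice (1 f/+, 1 fl/fl) and 2 cKO mice, all labelled male, 1 day after surgery without crush. Neuron libraries, 3 from Ahr fl/fl controls and 3 from cKO mice, all labelled female, were made from semi-purified neurons 24 h after seeding. For the sham and neuron libraries the tamoxifen schedule is not stated separately. The ganglia are bulk tissue, so fewer cells of a type and less RNA per cell cannot be told apart.

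Naive and crush libraries held 20169388 to 23540375 counts, sham libraries 39306414 to 58751270 and neuron libraries 25299938 to 88180611. Levels are given as CPM, counts scaled to the TMM-adjusted library total, with naive and crush libraries on one scale and sham and neuron libraries on another. *Ahr* stood at 18.9 to 28.1 CPM in naive, 36.2 to 40.5 in crush, 13.2 to 18.6 in sham and 43.9 to 56.0 in neuron libraries and was not lower in cKO; a count over the whole gene does not show whether a floxed exon was removed. In 2 of the 26 libraries (crush control 3 and crush cKO 2) the sex by transcripts went against the label. Every marker of the neuron list (11 of 11) reached a mean of 1 CPM in naive, crush, sham and neuron libraries.

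The reads of this family were divided very differently between the study's 2 count tables, one holding the naive and crush libraries and the other the sham and neuron libraries. In the first table the 85 genes held 0.271% to 0.360% of all counts, and 1941 copies of their coding sequences elsewhere in the genome held 0.652% to 0.877%. In the second table the genes held 1.14% to 1.80% and the copies 0.0686% to 0.157%. The libraries of the 2 tables did not overlap in either share. Genes and copies summed came to 0.923% to 1.24% in the first and 1.21% to 1.96% in the second, a narrower gap than for the genes alone. Copies were found for 80 of the 85 genes, with a median of 17 per gene and up to 165, and 1928 of the 1941 are annotated as pseudogenes.

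**Figure D1:**
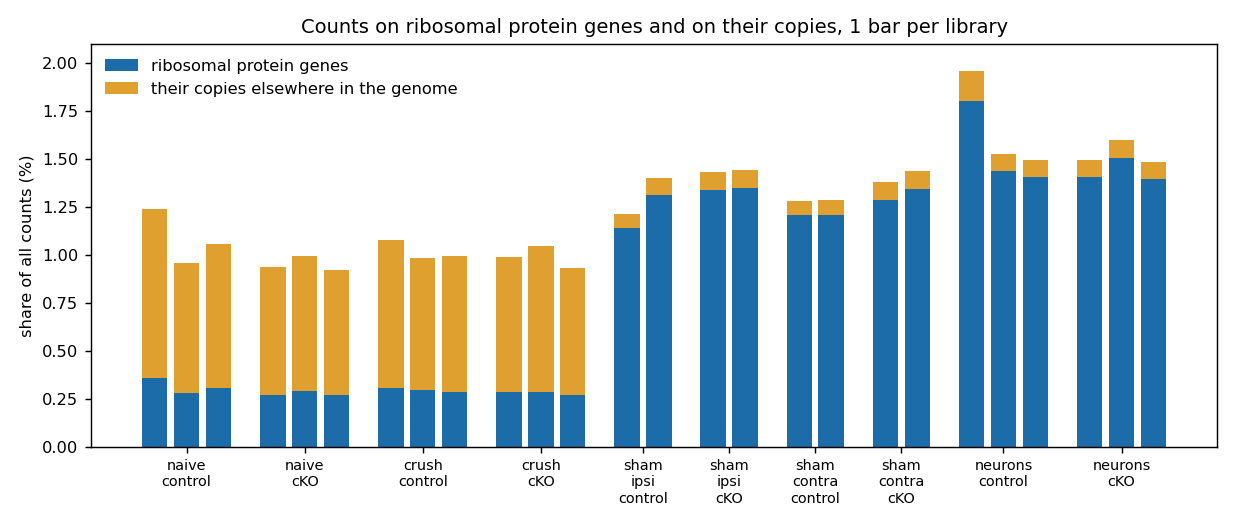
Share of all counts (vertical axis, %) on the ribosomal protein genes (blue) and on copies of their coding sequence (orange), 1 bar per library in 10 groups. The naive and crush libraries hold 0.271% to 0.360% on the genes, the sham and neuron libraries 1.14% to 1.80%, and the orange part is the larger one in the naive and crush libraries only.

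Some copies match their gene base for base. The first 60 coding bases of 3 genes and a stretch of *Rplp0* are set beside the same bases of a copy, from GENCODE M21 transcripts (build GRCm38), with the bases that differ in capitals; they are shown because the gene or the copy is named in a result.
Rps13: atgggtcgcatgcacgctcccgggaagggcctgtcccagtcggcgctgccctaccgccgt
Rps13-ps2: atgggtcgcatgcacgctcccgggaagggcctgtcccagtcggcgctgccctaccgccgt
Rps15a: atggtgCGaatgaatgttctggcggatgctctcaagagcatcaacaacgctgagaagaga
Rps15a-ps7: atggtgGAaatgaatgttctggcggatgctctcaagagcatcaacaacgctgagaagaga
Rpl10a: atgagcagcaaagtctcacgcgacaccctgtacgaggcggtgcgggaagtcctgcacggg
Rpl10a-ps1: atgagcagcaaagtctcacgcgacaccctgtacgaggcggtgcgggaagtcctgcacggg
Rplp0: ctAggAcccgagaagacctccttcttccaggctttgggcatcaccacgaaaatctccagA
Gm8730: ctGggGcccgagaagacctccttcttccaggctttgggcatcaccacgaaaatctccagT
*Rps13* (chr7:116331505-116334195, minus strand), a small-subunit protein, and its copy *Rps13-ps2* (chr7:88530446-88530898, minus strand) were identical over all 453 aligned bases. *Rpl10a* (chr17:28328471-28331033, plus strand) and *Rpl10a-ps1* (chr1:64993951-64994604, minus strand) were identical over 654 bases. *Rps15a* (chr7:118104372-118116188, minus strand) and *Rps15a-ps7* (chr2:152185291-152185682, minus strand) differed by 4 mismatches and 1 gap over 393 aligned positions, and *Rplp0* (chr5:115559467-115563727, plus strand), the core protein of the P-stalk, differed at 12 of 954 from *Gm8730*.

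Member by member, a gene's own reads made up a median of 18.5% of the reads of the gene and its copies in naive libraries, against 95.3% in sham libraries (79 genes with copies measured). In naive libraries 64 of the 79 genes held under 50% of their family's reads and 27 under 10%; in sham libraries none of the 79 held under 50%, and the lowest share was 63.9%. The copy with the most reads in naive ganglia, *Rpl3-ps1*, averaged 315 CPM there and 36.2 CPM in sham ganglia. *Gm8730* averaged 246 and 6.12 CPM, and *Rpl10a-ps1* 199 and 15.4 CPM. *Rpl10a* itself, by contrast, stood at 5.36 to 6.92 CPM in the 6 naive libraries and at 152 to 163 CPM in the 8 sham libraries.

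Between the tables the genes' own levels differed by a median log2 ratio of 3.06 (sham over naive ganglia), and by 0.52 once each gene was summed with its copies. A level over 8-fold lower in naive than in sham ganglia was seen for 42 genes alone and for 5 of the summed families. *Rps13* was the extreme among expressed members, at 0.135 to 0.539 CPM in naive libraries and 75.0 to 87.5 CPM in sham libraries. *Rpl9*, a large-subunit protein, stood at 0.903 to 1.84 and at 179 to 233 CPM. The pseudogene *Rpl32l* went the other way, with 19.8 to 22.8 CPM in naive and 0.198 to 0.482 CPM in sham libraries. A few genes were near equal in both, among them *Rpl22*, at 139 to 181 CPM in naive and 121 to 154 CPM in sham libraries, and *Rpl7l1*, at 54.6 to 59.1 and 56.4 to 66.4 CPM. In total 14 of the 85 genes averaged under 2 CPM in naive ganglia against 3 in sham ganglia, and 21 against 76 averaged 50 CPM or more.

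The 2 tables differ in material and library set, the sham mice are labelled male and the naive mice female, and per the labels the kit and the processing tools are the same for all 26 libraries. Pseudogenes that are not copies of these genes also held more of the counts in the first table (3.11% to 3.52% against 0.344% to 0.493%). The cause of the split was not tested. Contralateral sham ganglia, tested against naive ganglia across the tables by edgeR's quasi-likelihood test, were higher for 78 and lower for 2 of 83 members in control mice, where 64.6% of all genes differed, 32% higher and 32.6% lower. In cKO mice the counts were 79 and 2 of 83, where 61.8% of all genes differed, 31.3% higher and 30.6% lower. For families summed with their copies, 53 were higher and 10 lower of 81 in control mice, and 65 and 4 in cKO mice. Levels in naive and crush libraries are those of the reads assigned to the gene itself.

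**Figure D2:**
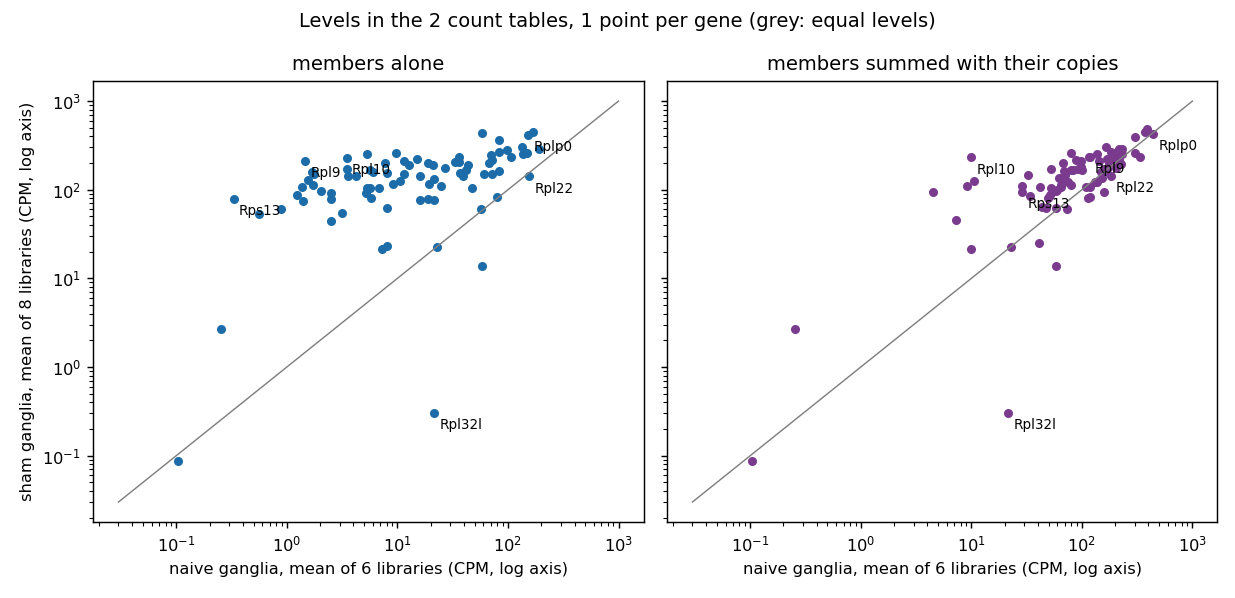
Mean level of each ribosomal protein gene in naive ganglia (horizontal, CPM, 6 libraries) and sham ganglia (vertical, CPM, 8 libraries), both axes logarithmic, alone (left) and summed with its copies (right). On the left most points lie far above the line of equal levels, *Rps13* the farthest among expressed genes; on the right the median log2 ratio is 0.52.

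Within the sham ganglia, where the genes held most of their families' reads, members differed widely per kilobase of transcript. In contralateral control ganglia the median was 161 CPM per kilobase (2 mice). *Rplp1*, an acidic P-stalk protein, led with 482, followed by *Rpl41*, the smallest ribosomal protein, with 468, and *Rps15* with 450. On the CPM scale these 3 genes had means ± SD of 241 ± 10.8, 255 ± 15.7 and 225 ± 9.04 (n = 2), so their order is within the spread of the mice. The other P-stalk genes *Rplp0* and *Rplp2* stood at 295 and 265 CPM per kilobase. This scale depends on the transcript length used: *Rps15a* (5130 bases) had 19.8 and *Rps20* (3706 bases) 38.3 CPM per kilobase. Their means were 102 and 142 CPM, and the part of transcript length in the spread was not tested.

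These paralogs, and the pseudogene *Rps4l*, stood below the gene they resemble in the same ganglia. *Rpl7l1* had 31.3 CPM per kilobase against 246 for *Rpl7*, *Rpl22l1* 34.1 against 66.4 for *Rpl22*, *Rps27l* 38.8 against 271 for *Rps27*, and *Rps4l* 27.1 against 219 for the X-linked *Rps4x*. *Rpl39l*, a testis paralog of *Rpl39*, did not pass 0.310 CPM in any library. *Rpl3l*, which takes the place of *Rpl3* in striated muscle, is described with the sham libraries below.

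Each mRNA's start was searched for 4 TOP-like motifs (first CTTTCC, then its variant CTTTTC, then the variant CTTTCT and last the variant CTTTTT). The search ran on the strand that reads like the mRNA, in the 10 bases before and 20 bases from the RefSeq start (GRCm38.p6). Among 63 members matched in the RefSeq promoter table, 16 (25.4%) held one, against 5.10% of 27025 genes in the table. The windows below are members named in the results, first 4 with a motif in capitals and then 4 without.
Rpl15: agaaagccttcttcCTTTCCtctggcggca
Rpl18: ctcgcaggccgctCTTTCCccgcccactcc
Rpl35: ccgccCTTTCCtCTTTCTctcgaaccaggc
Rps6: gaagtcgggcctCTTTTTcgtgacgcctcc
Rps15a: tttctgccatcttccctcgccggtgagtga
Rplp2: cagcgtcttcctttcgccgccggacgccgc
Rpl24: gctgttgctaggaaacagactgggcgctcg
Rps27l: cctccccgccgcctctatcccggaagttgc
A match is a description of these letters only, and *Rplp2*, for one, carries a pyrimidine run that the 4 motifs do not spell.

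Nerve crush left the family close to its naive level after 1 day. In control mice 1 of the 81 members tested rose and none fell at an adjusted p under 0.05 (edgeR), where 21.6% of all 21261 genes changed, 12.9% rising and 8.73% falling; the members' median log2 change was -0.02, as was that of all genes. Its sign rested on single libraries: the median was 0.07 with 68 members above 0 without naive control mouse 1, and -0.06 with 21 above 0 without naive control mouse 2. In cKO mice 2 of 81 members rose and none fell, where 18.6% of all genes changed, 10.7% rising and 7.89% falling. Their median was 0.03, with 59 members above 0; it was -0.01 with 37 above 0 in limma on FPKM, and 0.09 with 71 of 80 families above 0 with copies summed. With single libraries left out its lowest value was 6.5e-05, with 41 above 0, without crush cKO mouse 2. The central members moved little in control mice: *Rplp0* had a log2 change of -0.02 ± 0.09 (SE), *Rplp2* 0.02 ± 0.09, and *Rps3* -0.03 ± 0.08. *Rpl5* and *Rpl11*, which bind 5S ribosomal RNA and can hold MDM2, had 0.09 ± 0.11 and 0.01 ± 0.16.

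The member called in both genotypes was *Rps15a*, a small-subunit protein. It stood at 47.6, 44.3 and 47.2 CPM in the naive control mice and at 58.9, 63.4 and 56.5 CPM after crush. All 3 crush libraries lay above all 3 naive ones, and the log2 change was 0.36 ± 0.05 (SE, n = 3 and 3, edgeR adjusted p = 0.000505). In cKO mice *Rps15a* stood at 47.2, 47.5 and 49.7 CPM in naive and 61.4, 60.2 and 60.5 CPM in crush ganglia, again without overlap, with a log2 change of 0.33 ± 0.05 (adjusted p = 0.000962). Summed with its copies, the change was 0.14 in control mice (adjusted p = 0.148), which ends the call, and in cKO mice it stayed called. *Rps15a* also has the longest exon of the 85 members (4822 bases, against a median of 695 for the longest exon of a member); where in the gene its reads lie was not tested.

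The other member called in cKO mice was *Rps4l*, a pseudogene of *Rps4x*. It stood at 21.3, 18.9 and 22.5 CPM in naive and 24.3, 34.7 and 32.9 CPM in crush ganglia of cKO mice (log2 change 0.55 ± 0.12, adjusted p = 0.00687), and at 26.9, 25 and 22.4 against 30.4, 31.6 and 31.8 CPM in control mice (0.34 ± 0.12, adjusted p = 0.0612). The groups did not overlap in either genotype. *Rps4l* lies inside *Tmtc1*, whose counts were 1043% of its own, so its value may include reads of that gene; their part in the result was not tested. With sex by transcripts as a covariate, the change in cKO mice was 0.22 (adjusted p = 0.299), and without both libraries that went against their labelled sex it was 0.45 (adjusted p = 0.0534).

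Members whose crush and naive libraries did not overlap numbered 4 higher and 2 lower in control mice, where 21.1% and 17.1% of all genes did so, and 10 higher and 2 lower in cKO mice, where the shares were 18.5% and 17.6%. Both counts lay below the background. *Rps6*, the small-subunit protein phosphorylated downstream of mTOR, was among the higher ones in both genotypes, at 7.95, 8.26 and 7.81 CPM in naive and 8.74, 8.64 and 8.46 CPM in crush control mice (log2 change 0.10 ± 0.08, adjusted p = 0.409) and 0.21 ± 0.08 in cKO mice (adjusted p = 0.0841). *Rpl5* had 0.29 ± 0.11 in cKO mice (adjusted p = 0.0876). With copies summed, 4 of 80 families rose in cKO mice, where 19.0% of all features were called in the same fit. None was called in control mice, where 22.1% of all features were. The smallest adjusted p there (edgeR, 0.0617) was that of *Rps4l*, the only 1 at an unadjusted p under 0.05. The 4 were *Rps15a*, *Rps4l*, *Rpl15* (0.16, adjusted p = 0.0476) and *Rpl24* (0.18, adjusted p = 0.0358), the last 2 both large-subunit proteins. *Rps4l*, itself a pseudogene, had no copies added, so its value is that of the gene alone.

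No member passed the interaction test of the crush response between genotypes. At an adjusted p under 0.05, 0 of 81 members and 0% of all genes passed in edgeR, and at an unadjusted p under 0.05 there were again 0 members, against 2.95% of all genes. DESeq2 also called 0 members. The median difference was 0.06 (cKO minus control) and -0.02 without naive control mouse 1.

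Of 50 ribosome biogenesis genes, 18 rose and 1 fell in control mice (38% called, where 12.9% of all genes rose and 8.73% fell), and 21 rose and none fell in cKO mice (42% called, where 10.7% rose and 7.89% fell). Their medians were 0.16 and 0.16, and the gene that fell was *Dkc1*, the pseudouridine synthase of box H/ACA particles. *Nop58*, a core protein of box C/D snoRNA particles, averaged 25.9 ± 0.572 CPM (SD, n = 3) in naive and 37.2 ± 1.38 CPM in crush control ganglia. *Heatr1*, needed for transcription and processing of pre-ribosomal RNA, averaged 46.9 ± 1.84 and 58.3 ± 0.356 CPM. *Sbds*, which releases the anti-association factor eIF6 from the large subunit, averaged 82.1 ± 1.81 and 124 ± 13.4 CPM in cKO mice, and the large-subunit GTPase *Gnl2* 35.5 ± 1.11 and 51.3 ± 6.38 CPM. Of 14 RNA polymerase I genes 3 rose in control mice (21.4%, close to the 21.6% called among all genes) and 1 in cKO mice (7.14%, below the 18.6% of all genes); in cKO mice it was *Cd3eap*, a polymerase I subunit, with a log2 change of 0.75 ± 0.12.

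Among 21 genes of the growth control of ribosome production 5 rose and 1 fell in each genotype (28.6% called, against 21.6% and 18.6% of all genes). *Myc*, which activates ribosome production broadly, averaged 19.3 ± 1.44 CPM in naive and 37.5 ± 3.67 CPM in crush control mice, a log2 change of 0.96 ± 0.09, and 0.90 ± 0.10 in cKO mice. *Cdkn1a*, the cell cycle inhibitor p21, rose by 1.40 ± 0.17 in both genotypes, *Sesn2*, an inhibitor of mTORC1, by 1.01 ± 0.18 and 1.27 ± 0.19, and *Mdm2* by 0.50 ± 0.06 and 0.40 ± 0.06. *Maf1*, a repressor of RNA polymerase III, fell by 0.21 in control mice, and *Ddit4*, a negative regulator of mTORC1, fell by 0.74 in cKO mice.

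Of 15 translation factors and related genes whose mRNAs carry a TOP motif, 2 rose in control mice (13.3% called, against 21.6% of all genes), and 3 rose and 1 fell in cKO mice (26.7% called, against 18.6% of all genes). The 2 in control mice were *Vim* (0.53 ± 0.09), an intermediate filament gene, and *Pabpc1* (0.30 ± 0.06), the poly(A)-binding protein. The ribosomal proteins of mitochondria, which serve a separate ribosome, had 0 rising and 17 falling of 78 in control mice (21.8% called, where 8.73% of all genes fell) and 3 rising and 9 falling in cKO mice (15.4% called, below the 18.6% of all genes, of which 7.89% fell), with *Mrpl22* at -0.41 ± 0.08 and -0.37 ± 0.08.

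**Figure D3:**
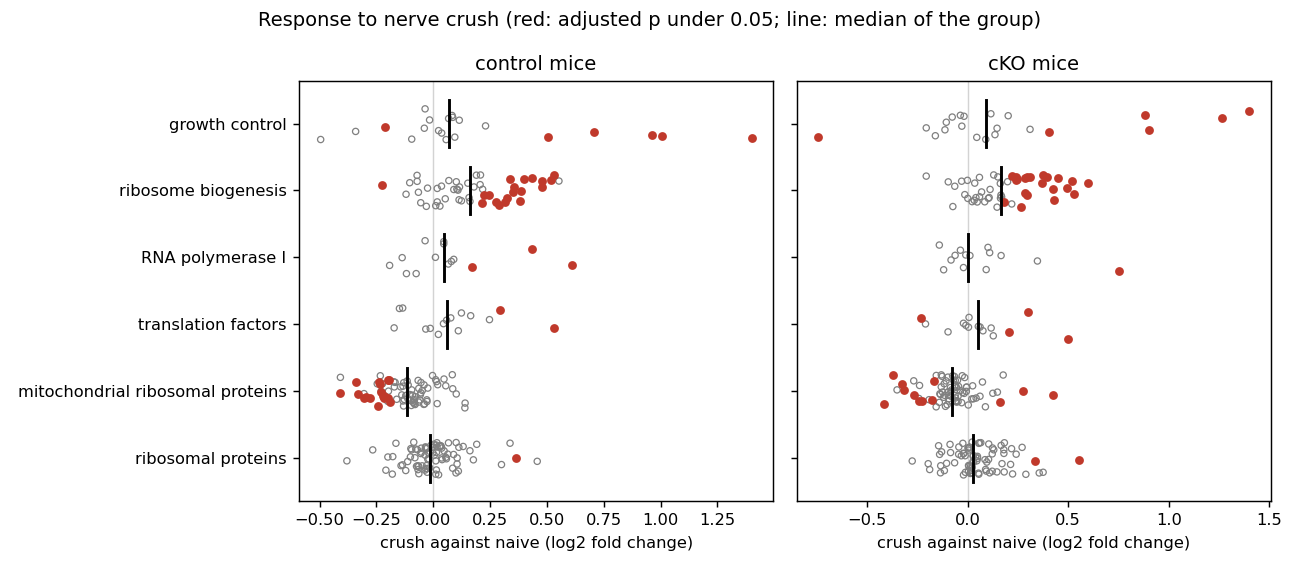
Log2 fold change after nerve crush (horizontal) for each gene of 6 groups (rows), control mice left and cKO mice right; red points have an adjusted p under 0.05, and the black line is the group's median. The median of the ribosome biogenesis genes is 0.16 in both panels (18 and 21 of 50 rose, 1 and 0 fell), and ribosomal proteins lie around 0 with 1 and 2 of 81 called.

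No member was called in any of the 5 comparisons of cKO with control by edgeR or by DESeq2, and in each most members lay on one side of 0. In naive ganglia 0 of 81 members were called (edgeR), where 0.00941% of all genes were. Their median was -0.13, 75 of 81 lay below 0, where 49.9% of all genes did, and 11 had an unadjusted p under 0.05, against 5.79% of all genes. *Rps27a*, made as a fusion with ubiquitin, had the smallest p: it stood at 5.80, 4.29 and 4.46 CPM in control and 3.48, 3.76 and 3.68 CPM in cKO mice. The groups did not overlap, but the log2 change of -0.41 ± 0.13 did not pass the test (adjusted p = 0.754). The groups were apart and lower in cKO mice for 15 members, where 5.32% of all genes were.

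This lean was weaker without naive control mouse 1. That library held 0.360% of its counts on members, the highest of the 12 naive and crush libraries, and 76 members were above the mean of the other naive control mice, by a median of 0.25 on the log2 scale. It also had the highest mitochondrial share of the 12 (1.65%, range 1.32% to 1.65%) and the highest sum of the dividing cell markers (66.9 CPM against 11.4 to 39.2). The part of these in the result was not tested. Without this library the median was -0.05 and 18 members lay above 0. In crush ganglia 0 members were called, where 0.00941% of all genes were; the median was -0.07, 64 of 81 lay below 0, where 50.2% of all genes did, and 4 had an unadjusted p under 0.05, against 2.72% of all genes. There were 15 members apart and lower, where 4.56% of all genes were. With single libraries left out the median ran from -0.10 (without crush cKO mouse 2) to -0.05 (without crush control mouse 1). In other settings it ran from -0.12 to -0.04. *Rpl13* had -0.42 ± 0.13 and *Rplp2* -0.23 ± 0.09 (both adjusted p = 1.00). *Rpl13* averaged 1.80 CPM in crush cKO and 2.41 CPM in crush control ganglia. It overlaps *Gm20388*, whose counts were 3790% of its own, so its value is uncertain.

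In cultured neurons 0 of 83 members were called (0% of all genes), the smallest adjusted p was 0.636, and 0 members had an unadjusted p under 0.05. The median was -0.11, and 81 of 83 members lay below 0, where 50.8% of all genes did. Neuron control library 1 decided the sign. It had 25299938 counts against 60139821 to 88180611 in the other 5 neuron libraries, a member share of 1.80% against 1.40% to 1.51% and a mitochondrial share of 0.761% against 0.432% to 0.502%. In it 80 members lay above the mean of the other 2 control libraries, by a median of 0.34. *Rps2* shows the pattern, with 494 CPM in that library, 333 and 326 CPM in the other control libraries and 329, 344 and 312 CPM in cKO neurons. Without that library the median was 0.03 and 63 members lay above 0.

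In sham ganglia the lean was the other way, higher in cKO mice. On the operated side 0 of 84 members were called, where 0.00451% of all genes were; the median was 0.12, 81 members lay above 0, where 52% of all genes did, and 7 had an unadjusted p under 0.05, against 7.59% of all genes. That count was 56 without sham control mouse 2, 1 with any other single library left out or with only the compared groups fitted, and 15 with the replicate block. The groups were apart and higher in cKO mice for 53 members, where 17.6% of all genes were. On the contralateral side 0 were called (0% of all genes), the median was 0.13, 79 lay above 0, where 48.9% of all genes did, and 23 had an unadjusted p under 0.05, against 5.23% of all genes. That count was 4 with limma, 4 to 13 with single libraries left out and 36 with only the compared groups fitted. There 70 were apart and higher, where 19.9% of all genes were. *Rps14*, a small-subunit protein, stood at 206 and 233 CPM in the 2 control mice and at 302 and 300 CPM in the 2 cKO mice on the contralateral side (log2 change 0.46 ± 0.13, adjusted p = 0.880). The *Rps14* model overlaps *Ndst1*, whose counts were 146% of its own, so its value is uncertain. *Rpl41* stood at 244 and 266 against 306 and 307 CPM, and *Rpl22l1* at 17.8 and 19.8 against 29.1 and 25.1 CPM. The mitochondrial share moved with this lean: it was 0.544% and 0.660% in contralateral control libraries and 0.985% and 0.919% in contralateral cKO libraries, and its part in the result was not tested. On the operated side sham control mouse 1 was low for the members, and without it the median was 0.04; without mouse 2 it was 0.20.

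**Figure D4:**
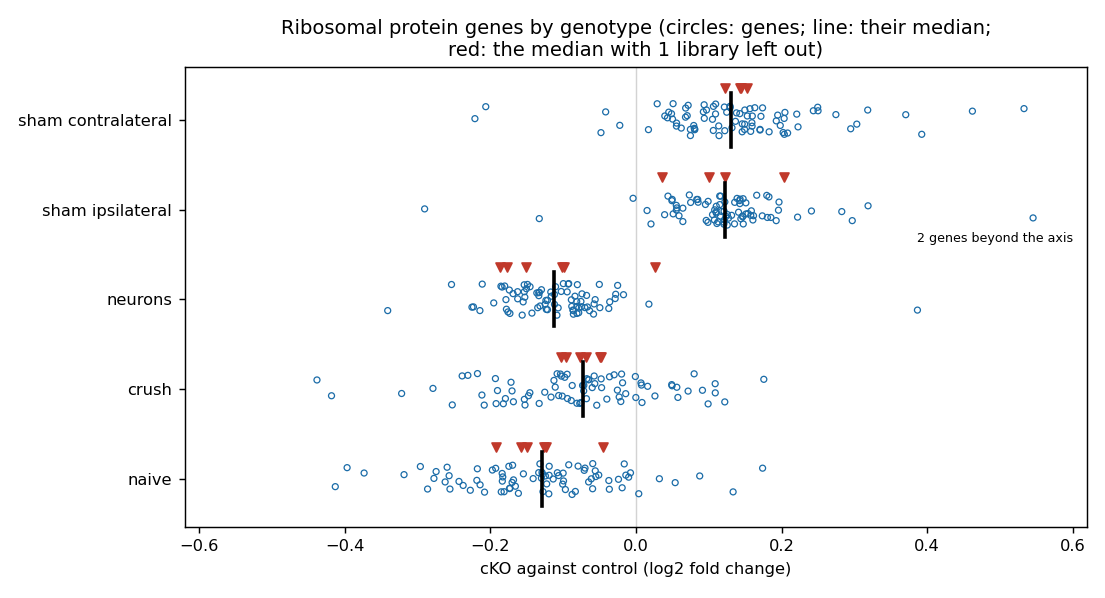
Log2 fold change of cKO against control (horizontal) for each ribosomal protein gene (circles) in 5 materials (rows), with the median (black line) and the medians with 1 library left out (red triangles). The medians are -0.13, -0.07 and -0.11 in naive, crush and neuron libraries and 0.12 and 0.13 in sham libraries, and in neurons a single left-out library takes the median to 0.03.

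Surgery without crush gave no called member either. Operated against contralateral sham ganglia had 0 of 84 members called, where 0.00451% of all genes were, 1 member at an unadjusted p under 0.05, against 7.56% of all genes, and a median of 0.02; DESeq2 also called 0. Without control mouse 2 the median was -0.04. *Rps15a*, the gene called after crush, stood at 97.8, 104, 107 and 111 CPM on the operated side and 104, 99.2, 100 and 110 CPM on the other, with the sides overlapping. The sham and crush libraries are in different tables and were not tested against each other.

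A single sham library stood apart for *Rpl3l*, the striated-muscle paralog of *Rpl3*. It had 15.9 CPM on the operated side of cKO mouse 2 and at most 2.00 CPM in the other 25 libraries. The same library held 365 CPM of *Ckm*, the muscle creatine kinase, 288 CPM of the skeletal actin *Acta1* and 518 CPM of the fast myosin *Myh4*, muscle genes that were chosen after the values were seen. The cKO-against-control log2 change of *Rpl3l* on the operated side was 4.95 ± 1.64 (edgeR adjusted p = 0.557) and 0.24 without that library. The part of muscle RNA in this result was not tested. *Rpl3* itself stood at 412 to 457 CPM over the 8 sham libraries.

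Cultured neurons could be set beside contralateral sham ganglia within one table, a comparison added after the data were seen. Neurons were labelled female and sham mice male, so culture, cell makeup and sex cannot be told apart here. In control mice 50 of 84 members were higher in neurons and 0 lower, where 67.8% of all genes differed, 35.2% higher and 32.6% lower; the members' median was 0.33 against 0.06 for all genes. In cKO mice 23 were higher and 10 lower, where 64.7% of all genes differed, 33.9% higher and 30.8% lower, with a median of 0.13. Whether the 2 genotypes differ in this contrast was not tested. Without neuron control library 1, 44 were higher and 6 lower in control mice with a median of 0.19, and without contralateral cKO mouse 1, 8 were higher and 8 lower in cKO mice with a median of 0.01.

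The largest difference in both genotypes among members averaging at least 1 CPM was that of *Rps27l*, a paralog of *Rps27* and a p53 target. *Rps27l* stood at 20.6 and 18.1 CPM in the control ganglia and at 70.8, 47.3 and 48.0 CPM in control neurons, and at 21.9 and 23.7 against 46.0, 56.4 and 49.6 CPM in cKO mice. Groups did not overlap, and the log2 changes were 1.51 ± 0.17 and 1.15 ± 0.16 (adjusted p = 5.27e-06 and 5.37e-05). *Rps27* itself stood at 88.1 and 98.6 against 106, 76.6 and 76.2 CPM in control mice, where it was not called (-0.12 ± 0.14), and at 113 and 127 against 73.2, 82.6 and 71.4 CPM in cKO mice, where it fell by 0.67 (SE 0.14, adjusted p = 0.00119). *Rps27l* was thus higher and *Rps27* lower in cKO neurons.

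*Rpl7l1*, a paralog of *Rpl7*, was called in both genotypes. It stood at 61.3 and 61.1 CPM in control ganglia and 103, 99.7 and 97.7 CPM in control neurons, a log2 change of 0.71 ± 0.07, and rose by 0.73 ± 0.07 in cKO mice. *Rpl7* rose by 0.39 ± 0.06 and 0.29 ± 0.06. The pair *Rpl22* and *Rpl22l1* was not called in control mice (-0.14 ± 0.09 and 0.06 ± 0.15) and fell by 0.37 and 0.58 in cKO mice. *Rpl22l1* stood there at 29.1 and 25.1 CPM in ganglia and 18.7, 17.6 and 18.2 CPM in neurons.

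Large-subunit members that rose in both genotypes included *Rpl18*, at 146 and 147 CPM in control ganglia and 262, 229 and 205 CPM in control neurons (0.67 ± 0.09, and 0.56 ± 0.09 in cKO mice), *Rpl6* (0.53 ± 0.08 and 0.31 ± 0.08) and *Rpl30* (0.51 ± 0.07 and 0.40 ± 0.07). *Rpl3*, among the most abundant members, was not called in either genotype (0.07 ± 0.06 and -0.02 ± 0.06). Of the 5S partners *Rpl5* rose by 0.59 ± 0.09 and 0.30 ± 0.09, and *Rpl11* had -0.09 ± 0.12 in control mice and fell by 0.52 in cKO mice. In the P-stalk *Rplp0* rose by 0.48 ± 0.08 and 0.35 ± 0.08, and *Rplp1* and *Rplp2* were not called.

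Among small-subunit members *Rps15a* stood at 104 and 99.2 CPM in control ganglia and 143, 137 and 147 CPM in control neurons, a log2 change of 0.48 ± 0.06, and 0.38 ± 0.06 in cKO mice. *Rps19*, a gene mutated in Diamond-Blackfan anemia, rose by 0.52 ± 0.09 and 0.46 ± 0.09, and *Rps6* by 0.57 ± 0.11 and 0.29 ± 0.11. *Rps14* had -0.20 ± 0.13 in control mice and fell by 0.77 in cKO mice, with 302 and 300 CPM in the ganglia and 176, 184 and 170 CPM in neurons. *Rps21*, *Rps29*, *Rps20*, *Rpl13a* and *Rpl41* also fell in cKO mice and were not called in control mice. Control and cKO neurons overlapped for each of these 6 genes: *Rps14* had 224, 175 and 173 CPM in the former. In the ganglia all 6 were lower in control than in cKO mice, without overlap.

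The X-linked members did not move as one. *Rpl10* rose by 0.55 ± 0.08 and 0.33 ± 0.08 and *Rps4x* by 0.38 ± 0.06 and 0.23 ± 0.06, and *Rpl39* and *Rpl36a* were not called in either genotype (0.10 ± 0.11 and 0.04 ± 0.09 in control mice).

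**Figure D5:**
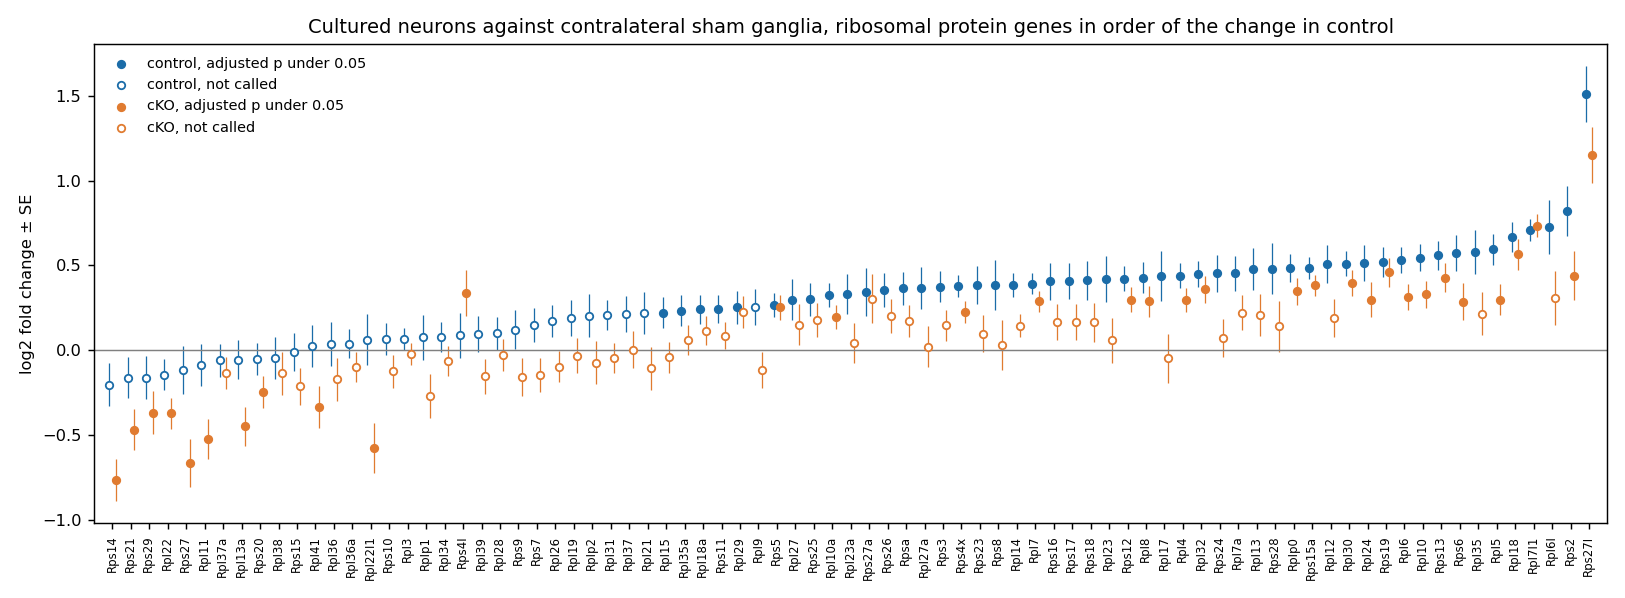
Log2 fold change ± SE (vertical) of cultured neurons against contralateral sham ganglia for 81 ribosomal protein genes, ordered by the change in control mice; blue is control and orange cKO, and filled points have an adjusted p under 0.05. *Rps27l* stands at the right with 1.51 and 1.15, and *Rps14*, *Rps27* and *Rpl22l1* lie below 0 in cKO mice; *Rpl3l*, *Rpl39l* and *Rpl32l*, at or under 2.00 CPM in the groups compared, are not drawn.

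The ribosome biogenesis genes were higher in neurons in the same contrast. In control mice 47 of 50 were higher in neurons and 1 lower (96% called, against 67.8% of all genes), and in cKO mice 48 and 1 (98%, against 64.7%), with medians of 1.19 and 1.05. *Ddx21*, a nucleolar helicase, averaged 33.8 ± 0.167 CPM in control ganglia (SD, n = 2) and 239 ± 27.4 CPM in control neurons (n = 3). *Gnl3*, nucleostemin, averaged 23.0 ± 1.22 and 111 ± 1.77 CPM. *Nop10*, a box H/ACA protein, was the gene that was lower in both genotypes (-0.62 ± 0.09 and -0.28 ± 0.09). Of 14 RNA polymerase I genes 12 were higher in each genotype (85.7% called), *Polr1b*, its second-largest subunit, by 1.89 ± 0.11 and 2.04 ± 0.11. Of 21 growth control genes 10 were higher and 2 lower in control mice (57.1% called, below the 67.8% of all genes) and 11 and 2 in cKO mice (61.9%, below 64.7%). Among those higher, *Myc* averaged 19.4 ± 0.692 and 144 ± 13.3 CPM in control mice, and *Trp53*, *Mdm2* and *Eif4ebp1* were higher by 2.02, 2.53 and 2.68. Mitochondrial ribosomal proteins were mostly lower, 51 of 78 in control mice with 8 higher (75.6% called), and 40 with 9 higher in cKO mice (62.8% called, near the 64.7% of all genes). Among the TOP mRNAs that are no ribosomal protein genes, 13 of 15 were higher and 1 lower in control mice (93.3% called) and 9 and 2 in cKO mice (73.3% called), *Pabpc1* by 1.56 ± 0.08 and 1.36 ± 0.08.

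Cell makeup moved with this contrast. The 11 neuron markers summed to 4486 to 5183 CPM in neuron libraries and 9977 to 10913 CPM in sham libraries. The 6 Schwann cell markers summed to 581 to 705 against 2827 to 4881 CPM, and the 5 endothelial markers to 890 to 1314 against 71.3 to 125 CPM. The 5 erythroid markers summed to 5.05 to 25.1 against 249 to 883 CPM, the 5 fibroblast markers to 205 to 386 against 348 to 709 CPM, the 7 macrophage markers to 169 to 190 against 131 to 158 CPM, the 5 lymphocyte markers to 1.53 to 2.82 against 3.11 to 11.3 CPM and the 5 dividing cell markers to 5.64 to 10.5 against 12.6 to 35.8 CPM. The 6 satellite glia markers summed to 789 to 890 against 939 to 1078 CPM. Within lists the genes did not move together, by means scaled to the library total without TMM. Of the satellite glia markers *Kcnj10* averaged 7.33 in neurons against 82.1 in sham ganglia and *Fabp7* 6.31 against 176, and *Sox10* averaged 193 against 82.2, *Glul* 505 against 391 and *Cdh19* 39.9 against 30.6. Of the macrophage markers *Cx3cr1* averaged 137 against 79.5, *Cd68* 17.2 against 3.71 and *Adgre1* 5.35 against 4.80, and *C1qa* averaged 0.258 against 20.2, *Csf1r* 18.6 against 23.8, *Mrc1* 1.05 against 6.61 and *Aif1* 0.481 against 2.82. Of the fibroblast markers *Pdgfra* averaged 57.2 against 13.3 and *Lum* 19.5 against 15.6. *Dcn* averaged 139 against 253, *Col1a2* 64.5 against 174 and *Col1a1* 35.4 against 102. No marker of these lists was at 0 in every neuron library. Their part in the members' change was not tested.

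Against naive ganglia, which are in the other table, nearly every member was higher in neurons: 78 of 82 higher and 3 lower in control mice, where 83.2% of all genes differed, 41.7% higher and 41.6% lower. In cKO mice it was 79 and 3, where 82.1% of all genes differed, 42% higher and 40.1% lower. The medians were 3.51 and 3.56 on the log2 scale. With copies summed they were 0.77 and 0.78, with 63 higher and 5 lower of 80 families in control mice and 66 and 5 in cKO mice. Between contralateral sham and naive ganglia, 2 ganglion tissues, the median for genes alone was 3.04 in control and 3.28 in cKO mice. Library set and material, and for sham against naive ganglia also the labelled sex, cannot be told apart in these contrasts.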

How the data were processed

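Bulk RNA-seq of 26 mouse libraries was read from 2 deposited count tables of whole-number counts per gene, not normalized by the authors, and 2 matching FPKM tables. The authors deposited FPKM divided by the whole gene span, introns included. Trimming with Trim Galore, alignment with HISAT2 to mm10 and counting with featureCounts are named in the submitters' processing notes without versions; settings for reads with several matches and for strand are not given in the sources used here. How reads under overlapping gene models were assigned is not given there either, so overlapped genes are uncertain. Besides those flagged above, they include *Rpl32l* (*Map7*, 953.9% of its own counts), *Rpl3* (*Syngr1*, 165%) and *Rpl24* (*Gm28037*, 106.5%). Symbols were matched for 99.5% of identifiers; coordinates are GRCm38, GENCODE M21. The members and gene lists were chosen with earlier results of these data known.

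Counts were tested with edgeR 4.0.16 in R 4.3.3 (filterByExpr with a minimum count of 10 and total of 15, TMM, quasi-likelihood test, 1 mean per group, Benjamini-Hochberg over all genes, adjusted p under 0.05); fits held the 12 naive and crush, 6 neuron, 8 sham, 14 sham and neuron, 6 neuron and 6 naive, or 4 contralateral sham and 6 naive libraries. The fit was tested on simulated data. SE is the absolute log2 change divided by the square root of F. Replicates are separate mice per the labels, by sample names that number the mice for the neuron libraries too. Copies are other gene models matching a member's coding sequence in BLAST+ 2.17.0 at 80% identity or more over 60 bases or more and covering at least 50% of the model or of the coding sequence; family sums add their counts to the member. Family sums and the comparisons of contralateral sham ganglia with neurons and with naive ganglia were chosen after seeing the data. Named genes were a set of paralogs, stalk, 5S-binding, X-linked and well-studied members, up to 5 members with the smallest p in each direction where any was called (only those whose groups did not overlap and whose mean reached 1 CPM), the 3 highest and 3 lowest members, and up to 4 list genes per direction; others named were chosen after their values were seen. Alternatives were DESeq2 1.42.0, other scalings and filters, limma 3.58.1 on log2(FPKM + 0.1) and log2(FPKM + 1), a replicate block, sex and left-out libraries. Replicate numbers pair the 2 sides of a sham mouse per the labels (correlation of deviations 0.303 in control and -0.226 in cKO mice), and the block by mouse changed no call. Same-numbered crush libraries of the 2 genotypes correlated at 0.105, 0.386 and 0.158; elsewhere some pairs were under 0.1.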

Additional observations from a re-analysis of the deposited data

How the results depend on the processing

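Counts of called members stayed within 1.5 times their value in 242 checks across comparisons and settings and did not in 11. After crush in control mice the count of 1 became 0 with copies summed, 2 at an adjusted p under 0.1, 2 with sex by transcripts as a covariate, 2 with only the compared groups fitted, and 1 to 2 with single libraries left out (1 higher and 1 lower without naive control 2). In cKO mice the count of 2 became 4 with copies summed, 5 at an adjusted p under 0.1 and 1 without both libraries against their labelled sex. Without the filter on low counts 1 member was called by genotype on each sham side. Neurons against sham ganglia in cKO mice had 33 called members and 16 to 29 with single libraries left out; the range in control mice was 35 to 54. With copies summed, *Rpl39* and *Rpl22l1* turned lower against naive ganglia: -0.49 and -0.98 in control neurons, -0.33 and -0.74 in cKO neurons, -0.60 and -1.04 in control sham ganglia and -0.13 and -0.15 in cKO sham ganglia. Among single genes and members' medians, 157 checks lost and 21 gained a call, 8 called gene values changed sign (given above), 42 medians moved by more than the spread between replicates, and 2728 checks did none of these. Medians, which carry no test, changed sign in 8 checks: 3 after crush in control mice (0.00 to 0.07), 2 in cKO mice (-0.01 in limma at either pseudocount), and 1 each in the interaction, the neuron genotypes and the sham sides (-0.02, 0.03 and -0.04). Causes were not tested except where fewer libraries or a looser threshold set them.

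With the replicate number as a block, the called members were 1 and 3 after crush (control and cKO), 0 in the interaction, in the 5 genotype comparisons and between sham sides (also by mouse), 81 and 82 for neurons against naive ganglia, 49 and 35 against sham ganglia, and 80 and 80 for sham against naive ganglia. All 3 neuron pairs of the 2 genotypes correlated best with their own number, a hint from the data and not the design. Depth limits the members with few own reads in naive and crush libraries, such as *Rps13*.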
